A study of Mus musculus with 8 samples.

Results

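The genes described here encode the catalytic core of Polycomb repressive complex 1 (PRC1) and the partners that set its variant forms apart. They are 10 genes, Ring1, Rnf2, Rybp, Yaf2, Kdm2b, Auts2, Fbrs, Fbrsl1, L3mbtl2 and Dcaf7. They were picked by gene name from the 24849 genes listed in each expression table, with earlier results of these data known. PRC1 is a ubiquitin ligase that places ubiquitin on histone H2A and holds developmental genes in a repressed state in embryonic stem cells. RING1 (also called RING1A) and RNF2 (RING1B) are the interchangeable ligase subunits. Each complex holds one of them with a PCGF protein, and variant complexes carry RYBP or its paralog YAF2 in the place that CBX proteins take in canonical PRC1. The PCGF subunit brings in further partners: KDM2B with PCGF1, AUTS2, FBRS or FBRSL1 with PCGF3 or PCGF5, and L3MBTL2 with PCGF6, whereas DCAF7 is found in several of these complexes.

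PolyA-selected RNA was sequenced from mouse embryonic stem cells (mESCs) of the MPI-II line, whose source is given as 129S2/SvPas, either wild type (WT) or Pcgf5-/-. The 4 groups were WT day 0, Pcgf5-/- day 0, WT day 6 and Pcgf5-/- day 6, with 2 samples each and 8 in all. At day 0 all cells grew on feeder cells with serum, LIF and both inhibitors of the 2i mixture, and for day 6 cells of both genotypes were moved to N2B27, a serum-free medium for neural differentiation. The study disrupted Pcgf5 at the second exon with TALE nucleases and inserted selection cassettes, then grew single colonies, so the Pcgf5-/- samples may stem from 1 clone, and an effect of the clone and an effect of Pcgf5 cannot be told apart. The study describes the lanes of its day 6 expression heatmaps as independent biological samples. Whether same-group samples came from separate cultures is not given in the labels, so the p-values measure the spread between these samples only. All values are FPKM, fragments per kilobase of exon scaled by the number of mapped fragments, which can be compared between genes.

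Pcgf5 itself followed the labels in its levels, with both Pcgf5-/- samples below both WT samples on each day. It was measured at 5.18 and 3.63 FPKM in WT day 0, at 1.28 and 1.84 in Pcgf5-/- day 0, at 9.16 and 5.06 in WT day 6, and at 0.669 and 0.457 in Pcgf5-/- day 6. In the limma fit used below, its genotype difference was -2.33 on the log2 scale at day 6 (adjusted p = 0.00421). At day 0 it was -1.07 and did not pass the threshold (adjusted p = 0.105, limma). Its change over the days in WT, 0.55, did not pass either (adjusted p = 0.135, limma). Whether the remaining signal came from parts of the transcript outside the targeted exon, or from another source, was not tested. The relative depth of the libraries, read from the steps between low FPKM values, was 0.993 to 1.29 times that of WT day 0 replicate 1. Same-group samples correlated across genes with Pearson's r of 0.972 to 0.974.

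The state of the cells at each day frames all comparisons below. The summed level of 10 mESC markers was 1681 to 1741 FPKM in WT and 1756 to 1872 in Pcgf5-/- at day 0, and 224 to 386 in WT and 950 to 1062 in Pcgf5-/- at day 6. The sum of 10 neural progenitor markers was 22.8 to 27.9 FPKM in WT and 25.1 to 34.4 in Pcgf5-/- at day 0, with Fabp7 at 0 in both WT samples, and 540 to 564 in WT against 207 to 215 in Pcgf5-/- at day 6. The 8 neuron markers summed to 173 to 176 FPKM (WT) and 149 to 176 (Pcgf5-/-, with Dcx at 0 in both samples) at day 0, and to 325 to 453 and 156 to 171 at day 6. At day 6, 9 of the 10 mESC markers were higher in Pcgf5-/- than in WT, and all 10 neural progenitor markers and 4 of the 8 neuron markers were lower, by limma. Fibroblast markers, 8 genes of the feeder cells, summed to 165 to 246 FPKM in WT and 156 to 550 in Pcgf5-/- at day 0, the 550 being in replicate 2, and to 24.7 to 32.8 and 11.7 to 13.6 at day 6. The 6 mesendoderm markers summed to at most 10.2 FPKM in any sample. The 6 extraembryonic markers reached 48.2 in 1 WT sample of day 6 and at most 16.0 elsewhere. What part these cell types had in the values of the 10 genes was not tested, and in bulk RNA fewer cells of a type and less RNA per cell cannot be told apart.

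All 10 genes were expressed above the minimum used for testing, a mean of 1 FPKM in at least one group. In the coordinates of NCBIM37 (mm9) with the GENCODE M1 annotation, Ring1 lies at chr17:34157737-34161625 and Rnf2 at chr1:153316536-153347953. Rybp is at chr6:100178559-100237352 and Yaf2 at chr15:93114264-93167366. Kdm2b (chr5:123320681-123439108), Auts2 (chr5:131913552-133018213) and Fbrsl1 (chr5:110790771-110877522) share chromosome 5. Fbrs is at chr7:134628735-134635027, L3mbtl2 at chr15:81494319-81518745 and Dcaf7 at chr11:105898186-105920637. Of the exon bases of L3mbtl2, 17.2% overlap Chadl on the opposite strand, and without strand information reads there cannot be assigned. Chadl was listed at 0.212 to 0.632 FPKM over the 8 samples, against 21.5 to 41.9 for L3mbtl2. Opposite-strand overlaps of Kdm2b, Fbrsl1 and Dcaf7 covered at most 4.54% of their exons.

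The 2 ligase paralogs behaved differently over the 6 days, so the 250 bases before their start sites are shown, with each CG dinucleotide in capitals. They were taken from a table of RefSeq promoters (GRCm38.p6), in which 7 of the 10 genes were matched, and placed on NCBIM37 by an exact match at chr17:34161626-34161875 and chr1:153348122-153348371, both on the minus strand.
Ring1: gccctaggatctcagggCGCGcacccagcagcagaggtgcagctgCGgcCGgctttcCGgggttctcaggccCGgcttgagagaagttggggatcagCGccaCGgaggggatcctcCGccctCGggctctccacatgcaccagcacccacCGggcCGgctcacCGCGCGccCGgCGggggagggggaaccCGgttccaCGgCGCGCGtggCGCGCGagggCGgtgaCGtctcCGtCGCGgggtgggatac
Rnf2: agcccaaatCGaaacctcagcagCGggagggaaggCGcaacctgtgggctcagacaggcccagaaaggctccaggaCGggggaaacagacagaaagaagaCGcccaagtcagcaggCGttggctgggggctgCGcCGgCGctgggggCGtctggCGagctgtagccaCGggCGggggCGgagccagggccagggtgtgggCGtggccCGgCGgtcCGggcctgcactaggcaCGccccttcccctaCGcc
The Ring1 promoter held 30 CG dinucleotides, more than 94.0% of the 32536 mouse promoters of the same length, and the Rnf2 promoter held 20, more than 81.9%, with a median of 6 over all promoters. Both are thus rich in CG. On both strands, neither sequence nor those of the other 5 matched genes held CACGTG (E-box), TTCCCGC (E2F), GCCATNTT (YY1), ATGCAAAT (octamer), GCGCATGC (NRF1) or CCGGAAGT (ETS). These motifs occur in 6.04%, 3.84%, 3.93%, 1.62%, 2.27% and 2.90% of the 32536 promoters.

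In WT mESCs at day 0, the dominant ligase gene was Rnf2 and the dominant RYBP-type gene was Rybp. Mean FPKM ± SD (n = 2) was 52.0 ± 4.52 for Rybp, 46.4 ± 4.32 for Rnf2, 38.3 ± 5.11 for L3mbtl2 and 30.5 ± 3.58 for Kdm2b. Lower down came Dcaf7 with 17.3 ± 1.59, Fbrs with 11.2 ± 0.351, Fbrsl1 with 9.28 ± 0.916, Auts2 with 7.18 ± 0.300, Ring1 with 3.45 ± 0.244 and Yaf2 with 3.17 ± 0.322. Of the 9 pairs of neighbours in this order, 7 had samples that lay apart, and Rybp with Rnf2 and Ring1 with Yaf2 overlapped. By WT day 6 the order had changed to Rnf2, Kdm2b, Dcaf7, Rybp, Auts2, L3mbtl2, Yaf2, Ring1, Fbrs and Fbrsl1, with 5 of the 9 neighbouring pairs overlapping. The samples of each of the neighbours from Dcaf7 through L3mbtl2 overlapped, as did those from Yaf2 through Fbrs. The highest mean was 16.4 times the lowest at WT day 0 and 6.86 times at WT day 6, so the genes had come closer together. In Pcgf5-/- this ratio was 17.7 at day 0 and 8.93 at day 6.

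**Figure D1:**
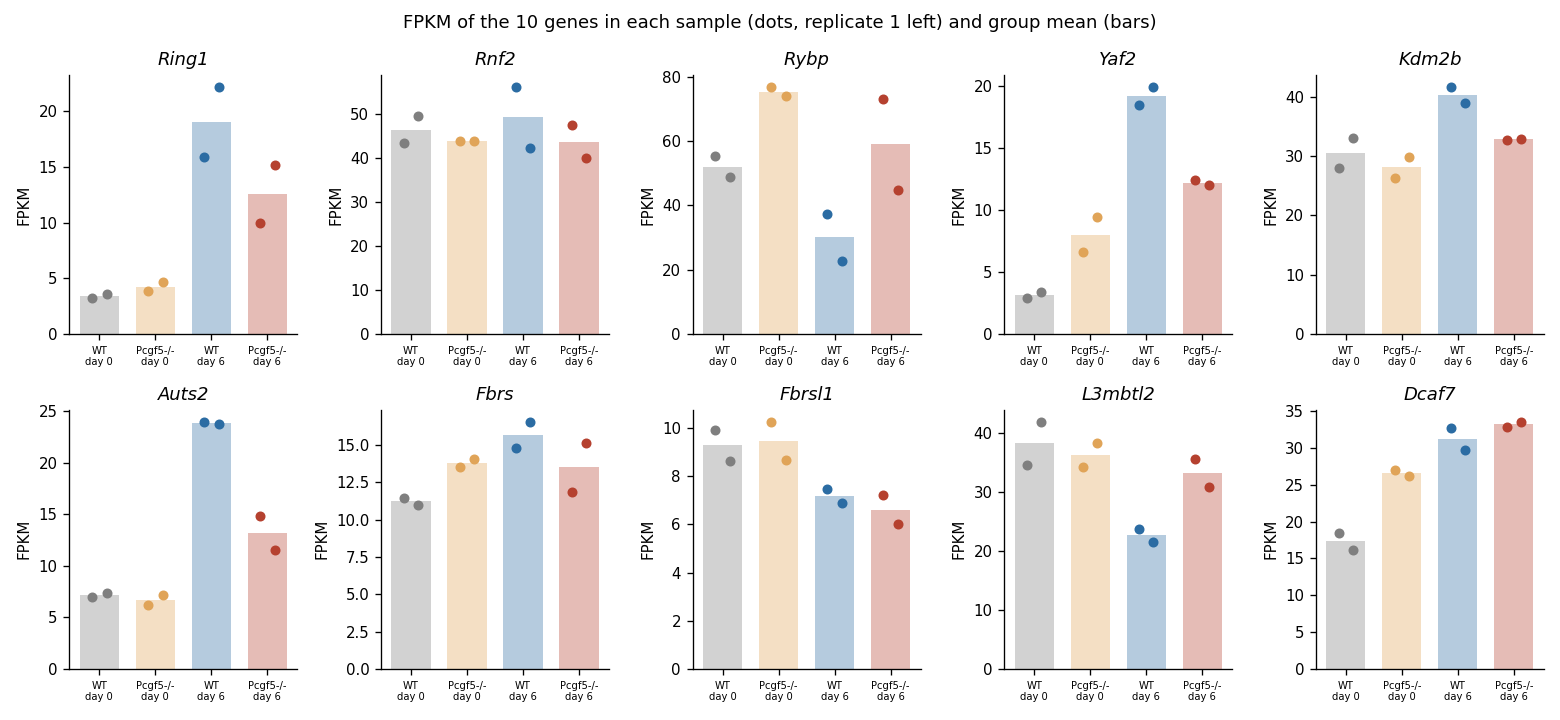
FPKM (vertical axes, from 0) of the 10 genes in WT and Pcgf5-/- cells at day 0 and day 6, with dots for the 2 samples of a group and bars for their mean. Ring1, Yaf2 and Auts2 were lowest at day 0 and highest in WT at day 6, whereas Rnf2 stayed between 40.0 and 56.1 in all 8 samples.

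The first comparison asked how these genes change as WT cells differentiate. Of the 10 genes, 6 rose (Ring1, Yaf2, Auts2, Dcaf7, Kdm2b and Fbrs), 2 fell (Rybp and L3mbtl2) and 2 did not pass the test (Rnf2 and Fbrsl1), by limma on log2(FPKM + 1) with adjusted p-values over all 13214 genes tested. This contrast moved a large part of the transcriptome, with 34.2% of all genes tested higher and 16.2% lower. The median log2 change was 0.42 over the 10 genes and 0.22 over all genes tested. With each sample set to the same median, the median change of all genes went from 0.22 to -0.15 and the calls went from 4522 higher and 2146 lower to 2745 and 4176. With quantile normalization the calls were 3181 higher and 3020 lower, and with each chromosome centred in each sample they were 3333 and 3256.

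Ring1, one of the ligase paralogs, was measured at 3.28 and 3.62 FPKM in WT day 0 and at 15.9 and 22.2 in WT day 6. Its mean rose 5.51-fold, a log2 change of 2.15 (SE 0.24, adjusted p = 0.000209, limma). Rnf2, the other paralog, stood at 43.4 and 49.5 FPKM and then at 56.1 and 42.4. The samples of the 2 days overlapped, and the log2 difference was 0.07 with a 95% interval from -0.30 to 0.45 (adjusted p = 0.732, limma). Ring1 therefore made up 7.03% and 6.82% of the summed FPKM of both paralogs at WT day 0 and 22.1% and 34.3% at WT day 6. Rnf2 remained the more abundant transcript in each sample.

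The RYBP-type subunits moved in opposite directions. Yaf2 went from 2.94 and 3.39 FPKM to 18.5 and 19.9, a 6.06-fold rise of the mean (log2 change 2.28, SE 0.19, adjusted p = 5.25e-05, limma). Rybp went from 55.2 and 48.9 FPKM to 37.4 and 22.8, and its fall of the mean to 0.578 of day 0 had a log2 change of -0.81 (SE 0.27, adjusted p = 0.0344, limma). The share of Yaf2 in the summed FPKM of Yaf2 and Rybp was 5.05% and 6.50% at WT day 0 and 33.0% and 46.6% at WT day 6. The sum itself was 55.2 ± 4.20 FPKM (SD, n = 2) at day 0 and 49.3 ± 9.34 at day 6. Its samples, 58.2 and 52.2 at day 0 and 55.9 and 42.7 at day 6, overlapped. Whether the pair's total changed was not tested.

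**Figure D2:**
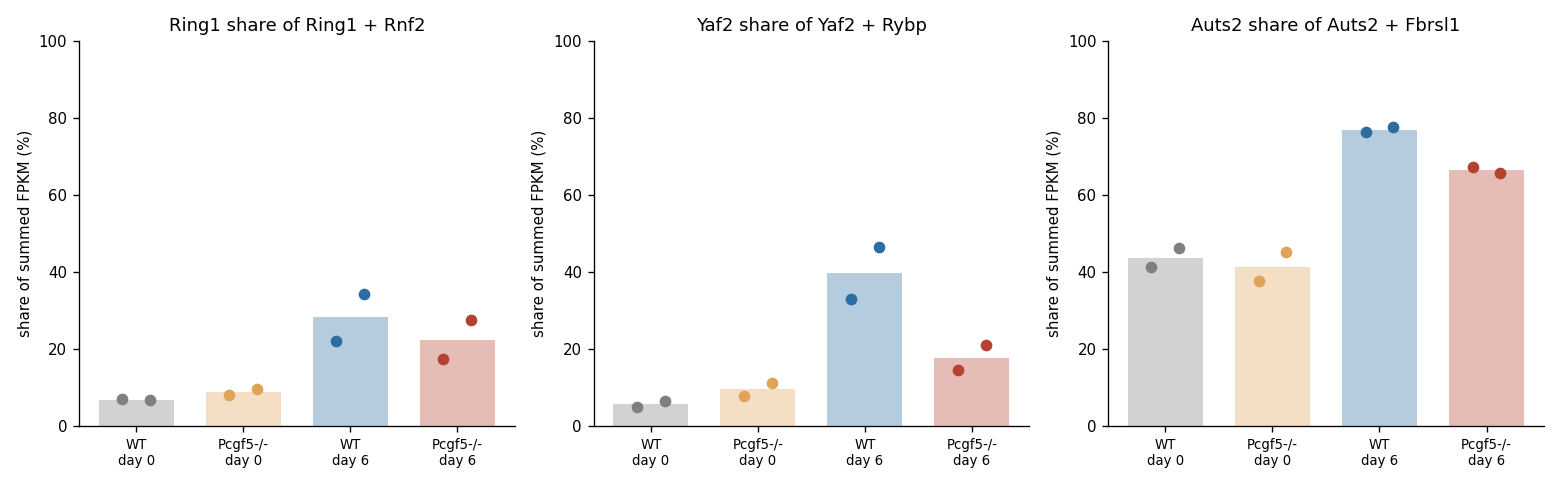
Share of the first gene in the summed FPKM of a pair (vertical axes, percent) in each of the 8 samples (dots) with group means (bars), for Ring1 with Rnf2, Yaf2 with Rybp and Auts2 with Fbrsl1. In WT the mean shares rose from 6.93% to 28.2%, from 5.77% to 39.8% and from 43.7% to 76.9%; in Pcgf5-/- they rose from 8.87% to 22.4%, from 9.59% to 17.8% and from 41.4% to 66.5%.

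Among the partners of PCGF3 and PCGF5, Auts2 stood out. AUTS2, whose gene is linked to human neurodevelopmental disorders, joins these complexes to casein kinase 2 and the acetyltransferase EP300. Auts2 was at 6.97 and 7.39 FPKM in WT day 0 and at 24.0 and 23.7 in WT day 6, a 3.32-fold rise (log2 change 1.60, SE 0.17, adjusted p = 0.000161, limma). Its relative Fbrs was at 11.5 and 10.98 and then at 14.8 and 16.5 FPKM (log2 change 0.45, SE 0.16, adjusted p = 0.0458). The third relative, Fbrsl1, was at 9.92 and 8.63 and then at 7.48 and 6.88 FPKM, and its log2 difference of -0.33 did not pass the test (95% interval -0.73 to 0.07, adjusted p = 0.149). All samples of Auts2 and Fbrs were higher at day 6 and all of Fbrsl1 lower, as were those of 49.5% and 28.1% of all genes tested. The log2 ratio of Auts2 to Fbrsl1 moved by 2.1003 and that of Fbrs to Fbrsl1 by 0.85.

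Kdm2b encodes a histone demethylase whose zinc finger binds unmethylated CpG islands. It was at 28.0 and 33.1 FPKM in WT day 0 and at 41.6 and 39.0 in WT day 6, with a log2 change of 0.39 (SE 0.13, adjusted p = 0.0391, limma). L3mbtl2, which encodes a chromatin-compacting protein with malignant brain tumor repeats, fell from 34.6 and 41.9 FPKM to 23.8 and 21.5 (log2 change -0.73, SE 0.15, adjusted p = 0.00414). Dcaf7, encoding a WD40-repeat scaffold that also binds DYRK and HIPK kinases, rose from 18.5 and 16.2 FPKM to 32.7 and 29.7 (log2 change 0.81, SE 0.13, adjusted p = 0.00116). For all 3 genes the samples of the 2 days did not overlap, which is the usual state in this contrast (49.5% of all genes tested lay apart higher and 28.1% lower). With each sample set to the same median, Ring1 (1.79), Yaf2 (1.91), Auts2 (1.24), Dcaf7 (0.45), Rybp (-1.17) and L3mbtl2 (-1.09) still passed, whereas Kdm2b (0.03, adjusted p = 0.860) and Fbrs (0.08, adjusted p = 0.693) did not and Fbrsl1 was lower (-0.69, adjusted p = 0.0139). The calls of Rybp, Kdm2b and Fbrs were also lost without single samples, Rybp moving to -0.46 (adjusted p = 0.217) without WT day 6 replicate 2, Kdm2b to 0.28 (adjusted p = 0.181) without WT day 0 replicate 1, and Fbrs to 0.37 (adjusted p = 0.210) without WT day 6 replicate 2.

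The same 6 days were then followed in Pcgf5-/- cells. Of the 10 genes, 3 rose (Ring1, Auts2 and Yaf2), none fell, and 7 did not pass the test, where 21.9% of all genes tested were higher and 10.4% lower. The median log2 change was 0.11 over the 10 genes and 0.13 over all genes tested. With each sample set to the same median, the calls over all genes went from 2898 higher and 1373 lower to 1960 and 2117. With quantile normalization they were 1961 and 1734, and with each chromosome centred they were 2148 and 1933. This comparison and the comparison in WT have no sample in common.

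Ring1 went from 3.90 and 4.63 FPKM in Pcgf5-/- day 0 to 9.99 and 15.1 in Pcgf5-/- day 6, a 2.94-fold rise (log2 change 1.34, SE 0.24, adjusted p = 0.00449, limma). Auts2 went from 6.18 and 7.14 FPKM to 14.8 and 11.5, a 1.98-fold rise (log2 change 0.88, SE 0.17, adjusted p = 0.00598). Both kept their call under every alternative computed. Yaf2 went from 6.60 and 9.39 FPKM to 12.4 and 12.0, a 1.52-fold rise (log2 change 0.57, SE 0.19, adjusted p = 0.0491). Its call lay at the threshold and was lost under 14 of 18 alternatives, among them 7 of the 8 left-out samples: with each sample set to the same median it was 0.39 (adjusted p = 0.127), and without Pcgf5-/- day 0 replicate 1 it was 0.34 (adjusted p = 0.265). Rnf2 stayed level, at 43.9 and 43.8 and then 47.5 and 40.0 FPKM (log2 difference -0.01, 95% interval -0.38 to 0.37, adjusted p = 0.976).

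The genes that fell in WT did not pass the test in Pcgf5-/- cells. Rybp was at 76.7 and 73.9 FPKM at day 0 and at 73.2 and 44.9 at day 6 (log2 difference -0.39, 95% interval -1.001 to 0.23, adjusted p = 0.299, limma). L3mbtl2 was at 34.2 and 38.3 and then at 35.5 and 30.8 FPKM (log2 difference -0.13, 95% interval -0.46 to 0.21, adjusted p = 0.550). The L3mbtl2 samples of the 2 days overlapped, whereas both Rybp samples of day 6 lay below those of day 0, as did those of 25.1% of all genes tested. Dcaf7 was at 27.0 and 26.2 FPKM and then at 32.9 and 33.5 (log2 difference 0.31, 95% interval 0.02 to 0.60, adjusted p = 0.0965). Kdm2b (0.22), Fbrs (-0.04) and Fbrsl1 (-0.46) also missed the threshold, the last with an adjusted p of 0.0764. Fbrsl1 fell in Pcgf5-/- (-0.64, adjusted p = 0.0310) once each sample was set to the same median.

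**Figure D3:**
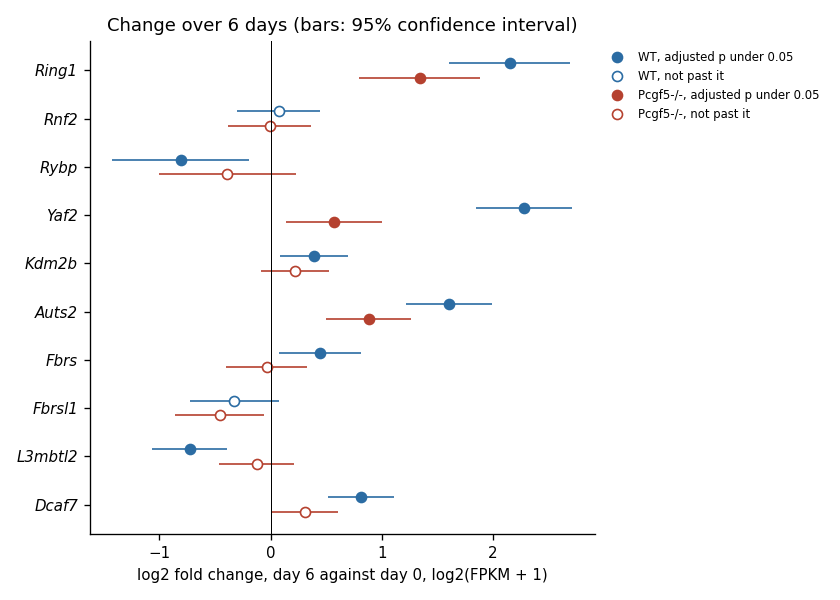
Log2 change from day 0 to day 6 (horizontal axis, on log2(FPKM + 1)) in WT and in Pcgf5-/- cells for the 10 genes, with bars for the 95% confidence interval and filled dots for an adjusted p under 0.05. Yaf2 shows the widest gap, 2.28 in WT against 0.57 in Pcgf5-/-, and Rnf2 lies at 0.07 and -0.01.

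Whether the genotype changed these moves was tested by the interaction of genotype and day, which equals the change over the days in Pcgf5-/- minus that in WT. Of the 10 genes, 1 passed, Yaf2, and none was higher; of all genes tested, 1.34% were higher and 1.75% lower. Yaf2 had a difference of -1.71 (SE 0.27, adjusted p = 0.0288, limma), as its change over the days was 2.28 in WT and 0.57 in Pcgf5-/-. The other differences were -0.81 for Ring1 (adjusted p = 0.197), -0.72 for Auts2 (0.122), 0.60 for L3mbtl2 (0.141), -0.50 for Dcaf7 (0.151), -0.48 for Fbrs (0.246) and 0.42 for Rybp (0.538). Their 95% intervals before adjustment ran from -1.58 to -0.04 for Ring1, from -1.26 to -0.18 for Auts2, from 0.12 to 1.08 for L3mbtl2, from -0.92 to -0.09 for Dcaf7, from -0.999 to 0.04 for Fbrs and from -0.45 to 1.29 for Rybp. The difference thus passed for Yaf2 alone, and that call was lost under 7 of 17 alternatives, among them 6 of the 8 left-out samples (adjusted p up to 0.114). Kdm2b (-0.17), Fbrsl1 (-0.13) and Rnf2 (-0.08) lay closest to 0, with adjusted p-values of 0.621, 0.783 and 0.861. The Yaf2 difference was -1.48 with an adjusted p of 0.0841 without Pcgf5-/- day 0 replicate 2, the library with the highest feeder marker sum, and its adjusted p was 0.0423 without replicate 1 of that group. Over all genes the calls were 177 higher and 231 lower, and they became 339 and 145 with each sample set to the same median, 307 and 225 with quantile normalization and 193 and 171 with each chromosome centred.

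The genotypes were next compared before differentiation. At day 0 none of the 10 genes passed the adjusted threshold in limma, where 0.288% of all genes tested were higher and 0.0454% lower in Pcgf5-/-. The disrupted gene Pcgf5 did not pass this test either (adjusted p = 0.105, limma). An unadjusted p under 0.05 was seen for 2 of the 10, Yaf2 and Dcaf7, and for 2294 of the 13214 genes tested. The median log2 difference was 0.13 over the 10 genes and 0.11 over all genes tested. Over all genes the 38 higher and 6 lower calls became 0 and 2 with each sample set to the same median or each chromosome centred, and 0 and 3 with quantile normalization. Yaf2 was at 2.94 and 3.39 FPKM in WT and at 6.60 and 9.39 in Pcgf5-/-, a ratio of means of 2.52. The log2 difference of 1.09 (SE 0.19) had an adjusted p of 0.0614 by limma. It passed under only 2 of 18 alternatives, a pseudocount of 0.01 (adjusted p = 0.0486) and a minimum mean of 5 FPKM (adjusted p = 0.0458). With each sample set to the same median it was 0.95 (adjusted p = 0.0987), and with each chromosome centred 0.98 (adjusted p = 0.162). With each sample left out in turn it ran from 0.87 to 1.32. The higher Pcgf5-/- value was that of the library with the highest feeder marker sum, and without that library the difference was 0.87 (adjusted p = 0.229); the part of feeder RNA in the Yaf2 value was not tested. On chromosome 15, 99.8% of the 519 other genes tested had a lower day 0 difference than Yaf2.

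The day 0 differences of Dcaf7 and Rybp went with those of their chromosomes. Dcaf7 was at 18.5 and 16.2 FPKM in WT day 0 and at 27.0 and 26.2 in Pcgf5-/- day 0 (log2 difference 0.59, SE 0.13, adjusted p = 0.0751, limma). Rybp was at 55.2 and 48.9 FPKM in WT and at 76.7 and 73.9 in Pcgf5-/- (log2 difference 0.53, SE 0.27, adjusted p = 0.356). The median difference of all tested genes was 0.48 on chromosome 11, which holds Dcaf7, and 0.41 on chromosome 6, which holds Rybp, whereas the medians of the 18 other chromosomes ran from 0.04 to 0.12. Dcaf7 and Rybp thus exceeded the medians of the other genes on their chromosomes by 0.11 and 0.12. With each chromosome centred in each sample the differences were 0.08 for Dcaf7 and 0.09 for Rybp. Chromosome copy number was not measured in these samples.

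**Figure D4:**
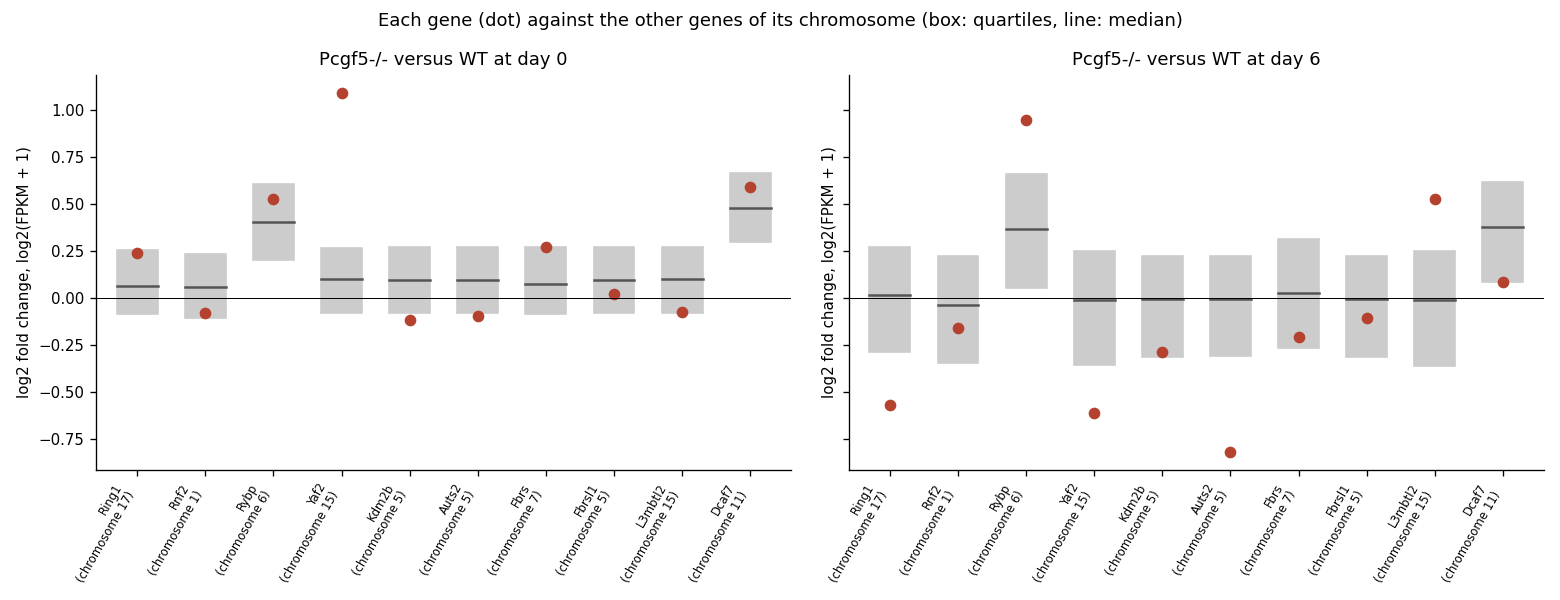
Log2 difference between Pcgf5-/- and WT (vertical axes) of each of the 10 genes (dots) at day 0 and day 6, over the quartiles (boxes) and median (lines) of the other genes tested on its chromosome. The medians of chromosomes 6 and 11 are 0.41 and 0.48 at day 0. Yaf2 (1.09) lies above 99.8% of the other genes on its chromosome at day 0. At day 6 Auts2 (-0.82), Ring1, Rybp, Yaf2 and L3mbtl2 lie outside the quartiles of their chromosomes.

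At day 6 the genotypes differed in more genes. Of the 10 genes, 2 were higher in Pcgf5-/- (Rybp and L3mbtl2), 1 was lower (Auts2) and 7 did not pass the test, where 9.57% of all genes tested were higher and 7.05% lower. The median log2 difference was -0.18 over the 10 genes and 0.02 over all genes tested. Over all genes the calls were 1265 higher and 932 lower, and 851 and 973 with each chromosome centred. This comparison shares its WT day 6 samples with the change over days in WT, so the same WT values stand in both.

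Auts2 was at 24.0 and 23.7 FPKM in WT day 6 and at 14.8 and 11.5 in Pcgf5-/- day 6, a ratio of means of 0.553 (log2 difference -0.82, SE 0.17, adjusted p = 0.0167, limma). Both Pcgf5-/- samples lay below both WT samples, as did those of 28.8% of all genes tested. The adjusted p was 0.0505 to 0.0926 when any of the 4 day 6 samples was left out, with differences of -0.99 to -0.65. Rybp was at 37.4 and 22.8 FPKM in WT and at 73.2 and 44.9 in Pcgf5-/-, a ratio of means of 1.96 (log2 difference 0.95, SE 0.27, adjusted p = 0.0457). On chromosome 6 the median difference was 0.37, and with each chromosome centred the Rybp difference was 0.55 (adjusted p = 0.208). L3mbtl2 was at 23.8 and 21.5 FPKM in WT and at 35.5 and 30.8 in Pcgf5-/-, a ratio of 1.46 (log2 difference 0.53, SE 0.15, adjusted p = 0.0443). The calls of Rybp and L3mbtl2 were each lost under 12 of 18 alternatives, with adjusted p-values from 0.0186 to 0.238 and from 0.0284 to 0.205.

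Yaf2 was at 18.5 and 19.9 FPKM in WT day 6 and at 12.4 and 12.0 in Pcgf5-/- day 6, the opposite order to day 0. Its log2 difference of -0.61 (SE 0.19) had an adjusted p of 0.0594 by limma, which ran from 0.0326 to 0.249 over the alternatives. Ring1 was at 15.9 and 22.2 FPKM in WT and at 9.99 and 15.1 in Pcgf5-/-, with a log2 difference of -0.57 (95% interval -1.12 to -0.03, adjusted p = 0.137). Both genes had all Pcgf5-/- samples above WT at day 0, as did 34.6% of all genes tested, and below WT at day 6, as did 28.8%. Kdm2b was at 41.6 and 39.0 FPKM in WT and at 32.7 and 32.9 in Pcgf5-/- (log2 difference -0.29, 95% interval -0.60 to 0.02, adjusted p = 0.180). Fbrs (-0.21), Rnf2 (-0.16) and Fbrsl1 (-0.11) had overlapping samples and adjusted p-values of 0.406, 0.541 and 0.714. Dcaf7, at 32.7 and 29.7 FPKM in WT and 32.9 and 33.5 in Pcgf5-/-, differed by 0.09 (adjusted p = 0.674), while the median of its chromosome was 0.38 higher in Pcgf5-/-.

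**Figure D5:**
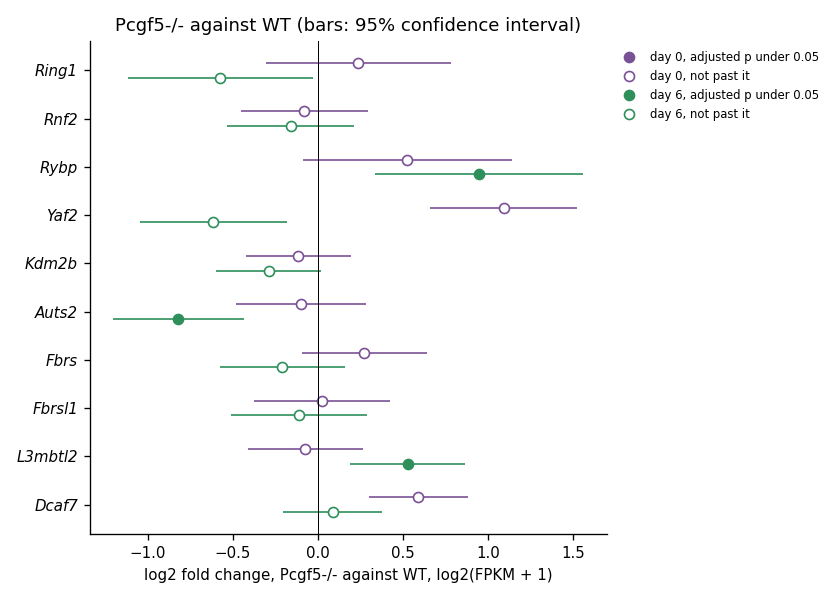
Log2 difference between Pcgf5-/- and WT (horizontal axis, on log2(FPKM + 1)) at day 0 and at day 6 for the 10 genes, with bars for the 95% confidence interval and filled dots for an adjusted p under 0.05. Yaf2 lies at 1.09 at day 0 and -0.61 at day 6, and only Rybp, Auts2 and L3mbtl2 at day 6 have filled dots.

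In paralog terms, the share of Yaf2 in the sum of Yaf2 and Rybp was 7.92% and 11.3% in Pcgf5-/- day 0 and 14.5% and 21.1% in Pcgf5-/- day 6. All Pcgf5-/- samples had a higher Yaf2 share than WT at day 0 and a lower one at day 6. The log2 ratio of Yaf2 to Rybp moved by 3.43 over the days in WT and by 1.03 in Pcgf5-/-. The share of Ring1 in the sum of Ring1 and Rnf2 was 8.17% and 9.56% in Pcgf5-/- day 0 and 17.4% and 27.5% in Pcgf5-/- day 6. At day 6 the Ring1 shares of the genotypes overlapped, as WT had 22.1% and 34.3%. The shares of Auts2 with Fbrsl1 at day 6 were 76.2% and 77.5% in WT and 67.3% and 65.7% in Pcgf5-/-, which lay apart.

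The other genes of the PRC1 pathway were read from 7 lists of 38 genes in all, of which 37 were tested. In WT over the days 10 rose and 4 fell, where 34.2% and 16.2% of all genes tested did. In Pcgf5-/- 4 rose and 1 fell, where 21.9% and 10.4% of all genes did. Between the genotypes none passed at day 0 by limma, and 7 had an unadjusted p under 0.05, as did 2294 of the 13214 genes tested. At day 6 none was higher and 5 were lower in Pcgf5-/-, where 9.57% and 7.05% of all genes were. Their median log2 differences were 0.23, 0.04, 0.06 and 0.06 in that order, and those of all genes tested were 0.22, 0.13, 0.11 and 0.02. In the interaction of genotype and day, none was higher and 2 were lower, where 1.34% and 1.75% of all genes tested were.

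Of the 6 PCGF paralogs, Bmi1 (PCGF4, a subunit of canonical PRC1) rose in WT (log2 change 1.36, adjusted p = 0.00067, limma), as did Pcgf2 (0.55, adjusted p = 0.0261). Bmi1 was at 32.6 and 22.5 FPKM in WT day 6 and at 14.6 and 12.4 in Pcgf5-/- day 6, and it was lower in Pcgf5-/- (log2 difference -0.95, adjusted p = 0.0156). Pcgf5 was the other PCGF gene lower at day 6. Of the 4 PCGF1 partners, Bcorl1 rose (1.02) and Usp7, a deubiquitinase, fell (-0.92) in WT, and the corepressor Bcor rose in Pcgf5-/- (1.20). Of the 3 casein kinase 2 subunits, which bind PCGF3 and PCGF5 complexes, Csnk2a2 rose in WT (0.45, adjusted p = 0.0430).

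Of the 11 PCGF6 partners, which work with L3MBTL2, 3 rose and 2 fell over the days in WT, and 3 rose and 1 fell in Pcgf5-/-. Of all genes tested, 34.2% rose and 16.2% fell in WT, and 21.9% rose and 10.4% fell in Pcgf5-/-. E2f6, a repressive member of the E2F family, went from 7.19 and 7.18 FPKM in WT day 0 to 34.6 and 33.7 in WT day 6 (log2 change 2.101, adjusted p = 1.37e-05, limma). In Pcgf5-/- it went from 12.3 and 12.2 to 30.4 and 28.4 FPKM (1.19, adjusted p = 0.000525), and the difference of -0.91 between these changes passed the test (adjusted p = 0.0426). Wdr5, a WD40-repeat subunit shared with histone methyltransferase complexes, fell in both genotypes (-1.32 in WT and -0.81 in Pcgf5-/-). The E2F partner Tfdp2 rose in both (0.97 and 0.996), as did the histone methyltransferase gene Ehmt1 (1.24 and 0.94). At day 6 Tfdp1 (-0.85) and the deacetylase gene Hdac2 (-0.47) were lower in Pcgf5-/-.

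Among the 6 H2A deubiquitinase genes and cofactors, Asxl2 fell in WT (-0.75). Of the 4 genes for ubiquitin activation and conjugation, Ube2d1, an E2 enzyme of the kind PRC1 uses, was at 21.9 and 20.8 FPKM in WT day 0 and at 58.9 and 70.2 in WT day 6 (1.55, adjusted p = 8.33e-05, limma). It was at 25.2 and 29.9 FPKM in Pcgf5-/- day 0 and at 36.3 and 37.1 in Pcgf5-/- day 6, lower there than in WT (-0.79, adjusted p = 0.0112), and the difference between the changes over days was -1.14 (adjusted p = 0.0322). Of the 4 genes for DCAF7 kinase partners and EP300, the kinase genes Hipk2 (1.36) and Dyrk1b (0.67) rose in WT.

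The genes whose pattern over the 8 samples was most like that of each of the 8 genes past the threshold in any comparison were found by the root mean square distance between log2(FPKM + 1) values centred on each gene's mean. The nearest to Ring1 were Ttc8 (distance 0.0856) and Mmab (0.108), where Ring1 itself spread by 0.920. Yaf2 (spread 0.848) was nearest to Mfng (0.0818), also on chromosome 15, and Specc1 (0.181). Auts2 (spread 0.694) was nearest to Pygo1 (0.0599) and Agap1 (0.0788). Rybp was nearest to Tsr1 and Tex11, Kdm2b to Rab39 and Ric8b, Fbrs to Ubl4 and Chp1, and L3mbtl2 to Mrpl15 and Dohh, at distances of 0.0424 to 0.137. Dcaf7 was nearest to Rundc1 (0.0336) and Gosr2 (0.0668), both on chromosome 11.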

How the data were processed

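PolyA-selected RNA was sequenced from 8 samples in 4 groups, taken from the labels. The authors trimmed reads, removed identical duplicates, aligned pairs to mm9 with TopHat2 and computed FPKM with Cufflinks; the submitters' processing notes name TopHat2 2.0.4 and Cufflinks 2.1.1. The deposited FPKM values are scaled for depth and gene length. They do not give fragment numbers, and strand settings are not given in the sources used here. Removing duplicates lowers the values of abundant transcripts.

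The 10 genes, the lists and the tests were chosen with earlier results of these data known. FPKM was analysed as log2(FPKM + 1), a scale on which fold changes of low genes are understated, over the 13214 genes whose mean exceeded 1 FPKM in some group. All 8 samples entered one fit (limma 3.58.1 with trend, R 4.3.3) with a mean per group, and Benjamini-Hochberg adjustment over all genes tested used a threshold of 0.05. Named were the 10 genes, Pcgf5, up to 2 genes per pathway list with the largest change past the threshold in each comparison, and the 2 nearest genes of each of the 10 that passed anywhere. The fit was tested on simulated data for the genotype comparison at day 6. It called 94.6% of 4-fold changes but only 55.2% of 2-fold changes, and 4.79% of the called genes were not changed. Alternatives were pseudocounts of 0.1 and 0.01, no filter or a mean over 5 FPKM, quantile or median scaling, chromosome centring, a replicate block, no trend, only the compared groups, and each sample left out. Tables and figures used Python 3.11.15, pandas 2.3.3, numpy 2.4.6 and matplotlib 3.10.9.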

Additional observations from a re-analysis of the deposited data

Results flagged for a closer look

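Yaf2 and Ring1 drew attention because the samples of the genotypes lay apart on both days, in opposite directions. Neither gene's genotype difference passed on either day (limma, adjusted p = 0.0614 and 0.0594 for Yaf2, 0.660 and 0.137 for Ring1). Fbrs, Fbrsl1 and L3mbtl2 also changed sign between the days, but their samples did not lie apart on both. Yaf2 was higher in both Pcgf5-/- samples at day 0 and lower in both at day 6, and the interaction of genotype and day was -1.71 on the log2 scale, past the threshold (adjusted p = 0.0288, limma). Ring1 was likewise higher in all Pcgf5-/- samples at day 0 (0.24, adjusted p = 0.660) and lower in all at day 6, a non-overlap shared by 34.6% of all genes tested at day 0 and 28.8% at day 6, with a difference of -0.81 that did not pass (adjusted p = 0.197, limma). Groups of 2 samples are too small for a test of single outlying samples.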

How the results depend on the processing

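Counts of genes past the threshold among the 10 were lost or gained as follows. At day 0 the count of 0 became 1 (Yaf2) with a pseudocount of 0.01 and 1 with a minimum mean of 5 FPKM. At day 6 the count of 3 became 1 (Auts2) with a pseudocount of 0.01, 1 with no filter, 1 with chromosome centring and 1 without the trend. The interaction of genotype and day went from 1 to 0 with no filter (Yaf2, adjusted p = 0.0563). With each sample left out in turn the counts ran from 0 to 2 at day 6 (0 without Pcgf5-/- day 6 replicate 1 or WT day 6 replicate 2), from 5 to 7 for WT over the days (5 without WT day 0 replicate 1 or WT day 6 replicate 2) and from 0 to 1 for the interaction, where Yaf2 kept its call without Pcgf5-/- day 0 replicate 1 or WT day 6 replicate 1. In Pcgf5-/- over the days the count of 3 ran from 2 to 4 over all alternatives, with Yaf2 lost under 14 of 18 and Fbrsl1 gained under 4. A group left with 1 sample was taken to vary like the other groups. Over all genes, 44 calls at day 0 became 0 to 102, 2197 at day 6 became 297 (without Pcgf5-/- day 6 replicate 1) to 2410, 4271 in Pcgf5-/- over the days became 2367 (without Pcgf5-/- day 0 replicate 1) to 4584, and 408 for the interaction became 4 (without Pcgf5-/- day 6 replicate 1 or WT day 0 replicate 2) to 532.

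The replicate numbers are shared across groups, but the labels tie them to no batch, and the correlation of replicate differences was 0.39 between the genotypes at day 6, 0.10 at day 0 and -0.08 to -0.02 for the other pairs of groups. With a replicate block the counts were 0 at day 0, 3 at day 6 (Yaf2 with adjusted p = 0.0476 in place of L3mbtl2 with 0.0504), 8 in WT over the days, 4 in Pcgf5-/- (Fbrsl1 added, adjusted p = 0.0455) and 1 for the interaction.

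Of 890 values under alternatives, 776 stayed on their side, 74 lost and 14 gained a call, and 26 changed sign, all in genes not past the threshold in that comparison. With each sample left out in turn, values that crossed 0 ran at day 0 from -0.17 to 0.015 for Rnf2, from -0.23 to 0.0014 for Kdm2b, from -0.087 to 0.13 for Fbrsl1 and from -0.21 to 0.061 for L3mbtl2; at day 6 from -0.36 to 0.039 for Rnf2 and from -0.22 to 0.0055 for Fbrsl1; over the days in WT from -0.13 to 0.27 for Rnf2, and in Pcgf5-/- from -0.13 to 0.11 for Rnf2 and from -0.20 to 0.13 for Fbrs; and in the interaction from -0.28 to 0.12 for Rnf2. With quantile normalization, Fbrsl1 went to -0.11 at day 0 and 0.039 in the interaction, and Rnf2 to 0.019 in Pcgf5-/- over the days. With median scaling, Fbrsl1 went to -0.12 at day 0, Rnf2 to -0.29 in WT over the days, and Fbrsl1, Rnf2 and Kdm2b to 0.049, 0.10 and 0.0078 in the interaction. With chromosome centring, Fbrsl1 went to -0.098 at day 0, Dcaf7 to -0.31 at day 6 and Rnf2 to -0.11 in WT over the days. The cause was not tested.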
